A study of Homo sapiens with 6 samples.

Results

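In untreated PLC/PRF/5 hepatocellular carcinoma cells, 569 genomic regions carried a wide peak of histone H4 lysine 5 lactylation (H4K5la) in both libraries and held no called peak in either library of lactate-treated cells. They were chosen from the peak calls themselves: peaks of the 4 libraries sharing at least 1 bp were merged into 71122 regions, and autosomal regions were kept in which the widest peak reached 1000 bp in both control libraries and in which neither lactate library had a peak. The members are 569 of the 7813 autosomal regions wide in both control libraries, or 7.28% (exact Clopper-Pearson 95% interval 6.72 to 7.88%, counting error only). Width, presence and the absence after lactate set the membership, so they are described here and carry no test. Absence means that no peak was called, not that the mark was shown to be gone.

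H4K5la was mapped by chromatin immunoprecipitation and sequencing (ChIP-seq) in PLC/PRF/5, an established human liver cancer line, with an antibody labelled PTM-1407RM. The control group held 2 libraries (replicates 2 and 3) of untreated cells, and the lactate group held 2 libraries (replicates 2 and 3) of cells kept in 20 mM lactate for 24 h. An input library of each treatment was listed without a peak list and was not analysed here. The labels do not say whether the replicates came from separate cultures, so the spread between libraries may be technical.

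Lysine lactylation is the attachment of a lactate-derived acyl group to a lysine side chain. On histones it neutralises the positive charge of the lysine tail, as acetylation does, and it has been described at promoters and enhancers of active genes. Lysine 5 of histone H4 can be acetylated as well as lactylated, and glycolytic cells such as liver tumours are a known source of lactate.

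The sequences below are examples of gene starts inside members: 6 members each enclose the 250 bases upstream of a coding gene start. They were picked after their values were seen, to span CpG-poor and CpG-rich starts. All are RefSeq sequence of GRCh38.p14, 5' to 3' on the strand of the gene, with every CpG dinucleotide in capitals.
MUC2 upstream: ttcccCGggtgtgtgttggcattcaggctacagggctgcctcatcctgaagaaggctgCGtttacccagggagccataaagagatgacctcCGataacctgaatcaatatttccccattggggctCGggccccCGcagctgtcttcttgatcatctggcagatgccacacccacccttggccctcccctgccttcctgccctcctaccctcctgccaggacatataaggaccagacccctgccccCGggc
PLPP7 upstream: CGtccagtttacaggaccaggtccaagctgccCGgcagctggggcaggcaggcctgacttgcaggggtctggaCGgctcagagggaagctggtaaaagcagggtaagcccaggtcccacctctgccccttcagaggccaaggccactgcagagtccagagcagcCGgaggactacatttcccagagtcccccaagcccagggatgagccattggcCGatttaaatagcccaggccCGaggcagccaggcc
CEMP1 upstream: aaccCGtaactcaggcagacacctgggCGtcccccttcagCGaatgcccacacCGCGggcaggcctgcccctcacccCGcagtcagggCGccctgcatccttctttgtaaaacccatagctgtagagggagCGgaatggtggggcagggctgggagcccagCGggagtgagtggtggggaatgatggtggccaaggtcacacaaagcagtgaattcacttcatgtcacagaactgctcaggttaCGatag
ULBP1 upstream: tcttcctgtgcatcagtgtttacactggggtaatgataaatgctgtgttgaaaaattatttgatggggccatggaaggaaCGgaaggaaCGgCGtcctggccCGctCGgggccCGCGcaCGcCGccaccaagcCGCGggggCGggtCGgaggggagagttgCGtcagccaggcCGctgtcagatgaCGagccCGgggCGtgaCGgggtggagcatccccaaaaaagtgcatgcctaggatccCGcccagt
SND1 upstream: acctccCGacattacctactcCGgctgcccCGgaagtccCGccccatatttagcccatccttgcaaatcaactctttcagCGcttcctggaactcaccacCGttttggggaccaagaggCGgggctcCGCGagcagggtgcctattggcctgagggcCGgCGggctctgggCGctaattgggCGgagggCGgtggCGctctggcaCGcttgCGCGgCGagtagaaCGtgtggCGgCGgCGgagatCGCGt
ABCF3 upstream: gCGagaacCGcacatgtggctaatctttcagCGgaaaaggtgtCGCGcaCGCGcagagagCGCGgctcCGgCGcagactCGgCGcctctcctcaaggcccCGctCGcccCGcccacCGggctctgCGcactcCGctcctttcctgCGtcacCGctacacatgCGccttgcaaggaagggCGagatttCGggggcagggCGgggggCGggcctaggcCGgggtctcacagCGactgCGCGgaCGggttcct
The window of MUC2, an intestinal gel-forming mucin, lies at chr11:1074624-1074873 (plus strand) and holds 6 CpG. PLPP7, a phospholipid phosphatase family member, also has 6 CpG, at chr9:131289473-131289722 (plus strand). The CEMP1 window, at chr16:2531409-2531658 (minus strand), holds 10. The CpG-rich starts are those of ULBP1, a ligand of the natural killer receptor NKG2D, at chr6:149963693-149963942 (plus strand) with 20 CpG, of SND1, a nuclease domain protein of RNA metabolism, at chr7:127651944-127652193 (plus strand) with 25, and of ABCF3, an ATP-binding cassette protein, at chr3:184185949-184186198 (plus strand) with 31.

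The members around these starts were wide in both control libraries. The MUC2 region was 1995 bp wide in control 2 and 1977 bp in control 3, with fold enrichments over background of 4.28 and 6.52. The ULBP1 region was 2039 and 1806 bp wide with folds of 10.1 and 9.11, and the ABCF3 region 1017 and 1012 bp with folds of 10.9 and 11.96. CpG-poor and CpG-rich starts therefore both occurred among the members. In all, 37 listed starts of 33 genes had their whole window of 250 bases before to 50 after the start inside a member. The dinucleotide CG, which reads the same on both strands, occurred a median of 14 times per window, and 48.6% of the windows held at least 15. Over all 33725 listed autosomal starts the median was also 14 and the share 49.0%, against a median of 12 and 35.6% at 464 starts in wide control regions that kept a peak in both lactate libraries, and 22 and 70.8% at 315 starts in narrower control regions without a lactate peak.

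Members also enclosed 3 microRNA genes, MIR6729 in MIIP, MIR6732 in ZC3H12A and MIR3138 in WDR1. Their mature RefSeq sequences follow with the seed, bases 2 to 8, in capitals, because the seed decides which transcripts a microRNA can pair with.
hsa-miR-6729-5p: uGGGCGAGggcggcugagcggc
hsa-miR-6729-3p: uCAUCCCCcucgcccucucag
hsa-miR-6732-5p: uAGGGGGUggcaggcuggcc
hsa-miR-6732-3p: uAACCCUGuccucucccucccag
hsa-miR-3138: uGUGGACAgugagguagagggagu
These 5 seeds all differ. The MIR6729 hairpin (chr1:12029158-12029222, plus strand) lay in a member 1486 and 1542 bp wide in controls 2 and 3, with folds of 7.19 and 6.88. The member at MIR6732 (chr1:37480230-37480289, plus strand) was 1083 and 1040 bp wide with folds of 7.82 and 11.1. The member at MIR3138 (chr4:10078611-10078692, minus strand) was 1080 and 1109 bp wide with folds of 7.05 and 9.34. The data measured the histone mark at these loci, not the RNAs.

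The lists held 52215 and 52959 control peaks and 37951 and 38402 lactate peaks. Relative to control 2, the ChIP depth recovered from the deposited values was 0.940 in control 3 and 0.786 and 0.887 in lactate 2 and 3. Lactate peaks were also narrower: in the 6352 wide control regions that kept a peak in both lactate libraries, a class chosen on control width, the widest peak had a median width of 1675 and 1646 bp in the control libraries and 915 and 910 bp in the lactate libraries. The background the caller set beneath a peak, which comes from the input, moved with treatment at the same places. Where a control and a lactate summit in these regions lay within 100 bp, the lactate background was a median of 1.41 to 1.43 times the control background over the 4 pairs of libraries, and it was higher at 75.5 to 75.9% of the summits. Over all autosomal regions that ratio was 1.02 to 1.03, and between libraries of the same treatment, in either set, it was 1. In the 2144 regions chosen the other way, as wide in both lactate libraries, the lactate background was still higher, at 1.27 to 1.30 times the control background. The recovered input depth was the same in both control libraries and 0.958 and 0.959 times that in the lactate libraries, and if the libraries of a treatment had 1 input in common, this difference has no replicate. Of the hepatocyte markers examined, 2 of 9 (APOA1 and HNF4A) carried a peak in both control libraries. So did 5 of 7 stromal and endothelial markers, 2 of 5 blood cell markers and 7227 of all 19122 autosomal coding genes. In both lactate libraries the marker counts were 1 of 9, 6 of 7 and 2 of 5. These sets are small, and the peaks do not measure expression.

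Regions without a lactate peak were common, and wide ones among them were few. Of 38623 autosomal regions found in both control libraries, 10275 had no lactate peak (26.6%). Among those not wide in both, the share was 31.5% (9706 of 30810), against 7.28% among the wide ones. The share fell with the narrower of the 2 control widths, from 39.0% at 300 to 499 bp and 24.9% at 500 to 749 bp to 10.2% at 1000 to 1499 bp (431 of 4205). It was 5.85% at 1500 to 1999 bp (100 of 1709), 2.67% at 2000 to 2999 bp (32 of 1197) and 0.855% from 3000 bp (6 of 702). The members are thus mostly the narrower end of the wide class. A peak in 1 lactate library only was present in a further 892 wide regions.

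**Figure D1:**
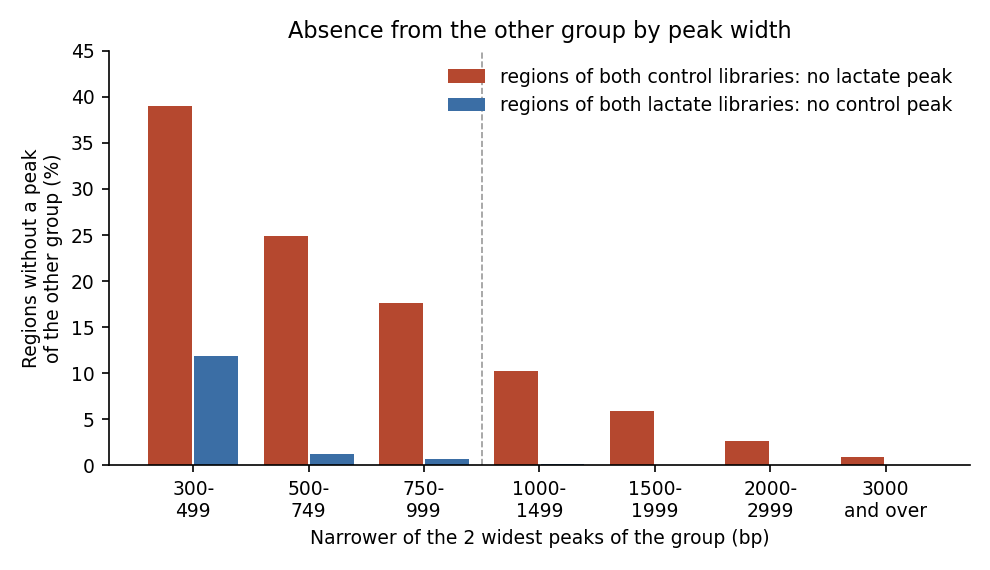
Share of regions without a peak of the other treatment (vertical axis, percent) by the narrower width in the 2 libraries of the first treatment (horizontal axis, bp), for regions of both control libraries and regions of both lactate libraries; the dashed line marks 1000 bp. The control bars fall from 39.0% to 0.855%, and the lactate bars from 11.9% to 0%.

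With the groups exchanged, 2 of 2144 regions wide in both lactate libraries held no control peak (0.0933%, exact 95% interval 0.0113 to 0.337%). Without the width condition the converse share was 7.5% (1916 of 25563). One of these regions lay in PAPOLA, the canonical poly(A) polymerase, at chr14:96501945-96503073, with widths of 1048 and 1025 bp in lactate 2 and 3 and folds of 7.25 and 6.15. The other overlapped no coding gene (chr18:13836631-13837667, widths 1002 and 1007 bp, folds 8.21 and 10.02). The control lists are longer and their peaks wider, so the counts of 569 and 2 are not drawn from equal lists. With equal numbers of peaks per library they became 382 and 37, and with a library left out in turn the counterpart count was 6 to 12.

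A wide peak in both control libraries was part of the choice, so some agreement between these libraries was built in. The widest peaks had a median width of 1330 bp in control 2 (range 1000 to 4848) and 1313 bp in control 3 (range 1000 to 4820). They shared a median of 88.0% of the bases that either covered, against 88.8 and 89.5% in wide regions with a peak in 1 or both lactate libraries. In the members the summits of the control libraries lay a median of 228 bp apart. A single peak in each control library made up 503 of the 569 members (88.4%), against 87.0 and 79.7% of those other wide regions. The median fold was 6.67 in control 2 (range 2.01 to 16.6) and 7.58 in control 3 (range 2.15 to 17.7), and the median -log10 q was 9.67 and 11.2. Single members differed more between the libraries than the medians did.

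**Figure D2:**
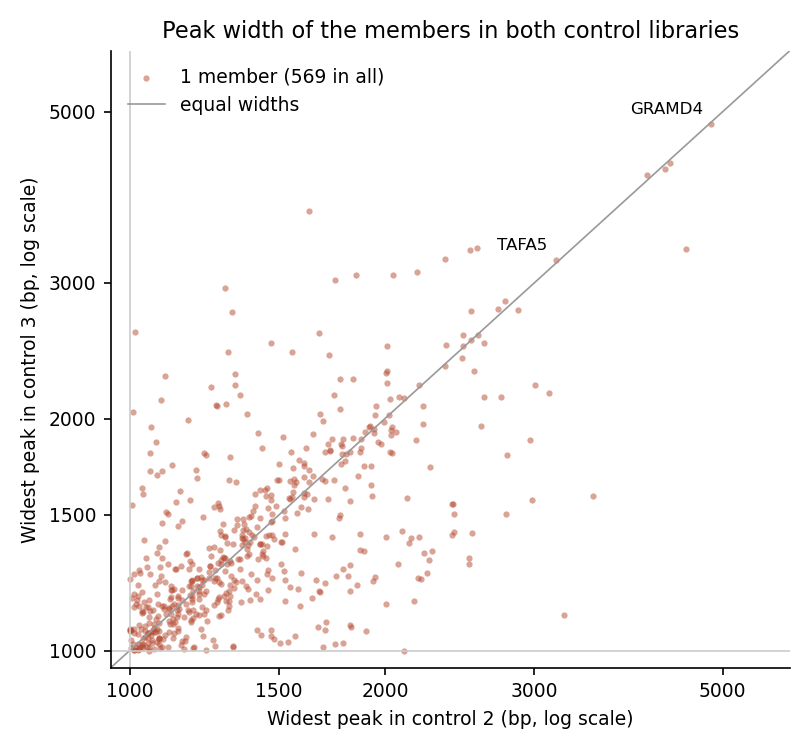
Width of the widest peak in control 2 (horizontal axis, bp, log scale) against control 3 (vertical axis, bp, log scale), 1 point per member, with the line of equal widths and the limit of 1000 bp. Most points lie below 2000 bp on both axes, and GRAMD4 is the farthest out at 4848 and 4820 bp.

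GRAMD4, which encodes a mitochondrial protein linked to cell death, held the widest member (chr22:46661298-46666196). Its peak was 4848 bp in control 2 and 4820 bp in control 3, with folds of 7.59 and 12.3 and 33 and 37 ChIP reads at the summit. The nearest lactate peaks lay 6565 bp away in lactate 2 and 4081 bp away in lactate 3. Within 20000 bp of its centre on either side, controls 2 and 3 had 11 and 9 peaks, the member's own included, and lactate 2 and 3 had 4 and 6. At lower coordinates a control peak of 2330 bp in control 2 and 2286 bp in control 3 lay over lactate peaks of 837 and 548 bp in lactate 2 and of 1000 and 445 bp in lactate 3. At the next site a lactate 3 peak of 1401 bp lay over shorter peaks of 1260 bp in control 2 and 1161 bp in control 3, and reached into the following ones of 1416 and 2299 bp. Lactate 2 had no peak at that site, and the lactate 3 peak covered each of these control peaks only in part. The other lactate peaks around the member were shorter than the control peaks they overlapped. Background beneath the summit was 2.62 and 1.59 times the genome level in controls 2 and 3.

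The next widest members lay in genes of varied function. PACS2, a sorting protein of contacts between the endoplasmic reticulum and mitochondria, had a member of 4275 and 4211 bp with folds of 4.12 and 8.41. PARP10, a mono-ADP-ribosyltransferase, had one of 4068 and 4144 bp (folds 4.92 and 7.31), and its nearest lactate peaks were 23267 and 12898 bp away. The noncoding LINC02247 member on chromosome 9 measured 4338 and 4290 bp with folds of 8.57 and 8.46, and lactate peaks began 739 and 783 bp from it. These members differ in how isolated they are: LINC02247 sits beside lactate peaks and PARP10 does not.

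Other members among the 12 widest were in TAFA5 (3180 and 3208 bp), a secreted chemokine-like peptide, SLC4A2 (2772 and 2844 bp), an anion exchanger, and ARHGEF16 (2873 and 2764 bp), a guanine nucleotide exchange factor. PRKCZ, an atypical protein kinase C, had 2720 and 2775 bp, and KDM4B, a histone H3 lysine 9 demethylase, 2577 and 2569 bp. A member of 2524 and 2528 bp overlapped both CAPS and RANBP3. MUC6, a gastric mucin, stood apart in enrichment: it was 2569 and 3325 bp wide with folds of 2.29 and 3.74 only, over a background of 13.3 and 7.51 times the genome level.

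The 8 members of best mean fold rank included some near the width limit, such as KCNH3 (1166 and 1042 bp) and ZCCHC24 (1000 and 1064 bp). ASIC4, of the acid-sensing ion channel family, had folds of 14.3 and 17.7 in controls 2 and 3 with 36 and 42 reads at the summit. AQP1, a water channel, had folds of 15.9 and 15.2, and KCNH3, a voltage-gated potassium channel, 13.2 and 15.6. RASGRF1, a Ras exchange factor, had 12.03 and 17.5, ZCCHC24 12.4 and 14.4, and LINC01237 13.9 and 14.0. In these 6 the background stood at 1 to 1.20 times the genome level in both libraries, so the high folds rested on reads over a low background. Of the 2 intergenic ones, the member 29466 bp from TPCN2 had folds of 16.6 and 15.2, and the one 97033 bp from SP4 had 14.2 and 16.6. ASIC4 and KCNH3 had lactate peaks within 648 to 840 bp in both lactate libraries, whereas those nearest the SP4 member lay 78753 and 205539 bp away.

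Compared with the 6352 wide regions that kept a peak in both lactate libraries, the members were narrower and less enriched in the control libraries, which were part of the choice. Median width was 1330 and 1313 bp against 1675 and 1646 bp, and median fold 6.67 and 7.58 against 9.24 and 9.91. The ChIP reads at the summit were close, at a median of 27 and 28 against 29 and 30. Of reads and background, the larger gap was in background, at a median of 2.28 and 2.05 times the genome level in the members against 1.37 and 1.40. In 267 members (46.9%) it exceeded 2 times the genome level in both control libraries, against 26.8% of the regions with both lactate peaks, 32.4% of those with 1 and 30.1% of the narrower regions without any. Members therefore had nearly the reads of the other wide regions over a higher input background. The part of background in the missing calls was not tested.

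**Figure D3:**
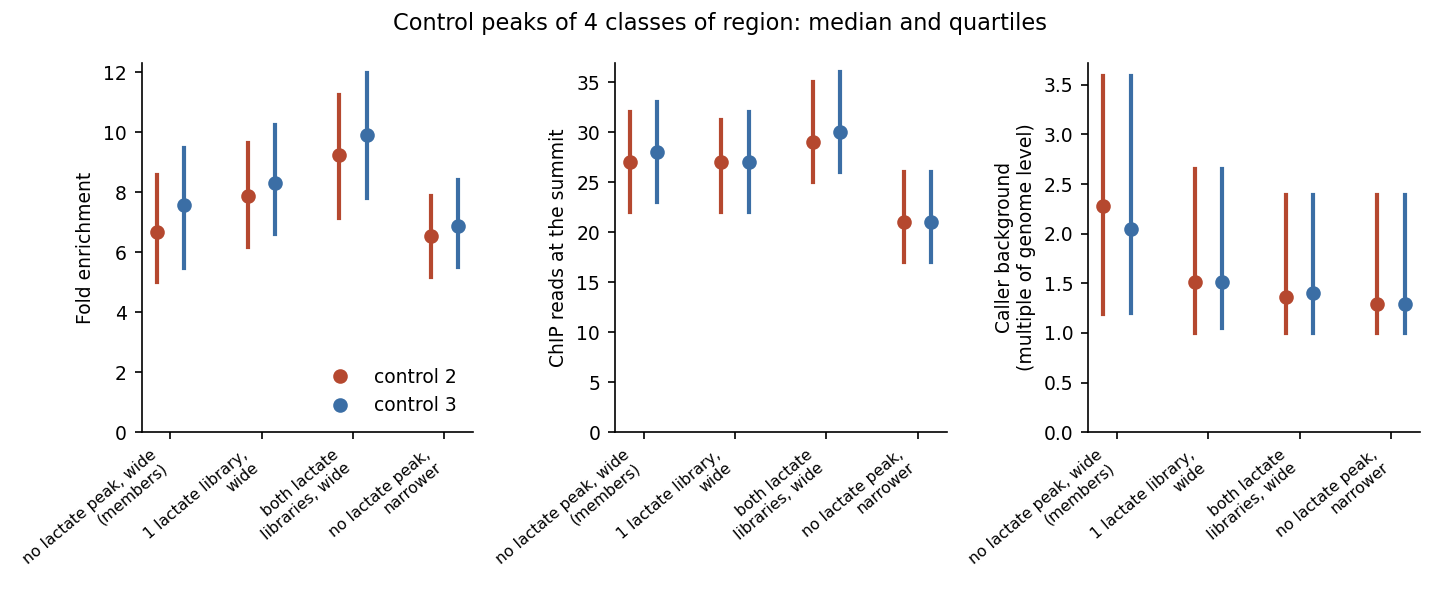
Median (point) and quartiles (line) of fold enrichment, ChIP reads at the summit and caller background (multiple of the genome level) of the widest control peak, for the members and 3 other classes of region, in control 2 and control 3. Of these 3 measures, the medians of the members differ most, in relative size, from those of the other classes in background, at 2.28 and 2.05.

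The control summits could be carried to the caller's scale in the lactate libraries by arithmetic. That scale is its genome-wide background level, 0.837 and 0.836 in controls 2 and 3 and 0.795 and 0.770 in lactate 2 and 3. The scaled reads and the background at each member's strongest control summit were multiplied by the ratio of these levels, lactate over control. The relative ChIP depths did not enter, as the caller's scale is that of the input. On this scale, 560 of 569 members (98.4%) passed the lowest -log10 p of the lactate library in all 4 control and lactate pairs. The same check passed 99.2% of the wide regions with a peak in 1 lactate library, 99.9% of those with both and 98.5% of the narrower regions without any, all of them chosen for passing in the control libraries, so the share says little about the members. The 9 others included members in RAI1, DOK7, CPNE7, SSTR5, SRMS, NHERF2, DACT1 and LINC01342. With the background also raised by the median ratio of each pair (1.41 to 1.43), 520 passed in every pair (91.4%). With the control background multiplied by 2 the count was 434 (76.3%), and multiplied by 3 it was 295 (51.8%). The lactate background at the members themselves is not part of a peak list, so the count that applies is unknown.

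Lactate peaks were nevertheless close to most members. The nearest peak lay a median of 2505 bp away in lactate 2 and 2202 bp in lactate 3. Both lactate libraries had a peak within 1000 bp of 110 members (19.3%), within 5000 bp of 371 (65.2%) and within 10000 bp of 456 (80.1%). For the narrower regions without a lactate peak these shares were 12.8, 47.9 and 62.8%. Around the 371 members the background at the nearest lactate summit was a median of 3.78 and 3.90 times the genome level in lactate 2 and 3, against 1.71 and 1.65 at the nearest other control summit within 5000 bp. A complete gap was rarer: 137 members (24.1%) had no lactate peak within 5000 bp and 17 (2.99%) none within 50000 bp. Among the narrower regions without a lactate peak such gaps were more common, at 39.5 and 9.63%.

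**Figure D4:**
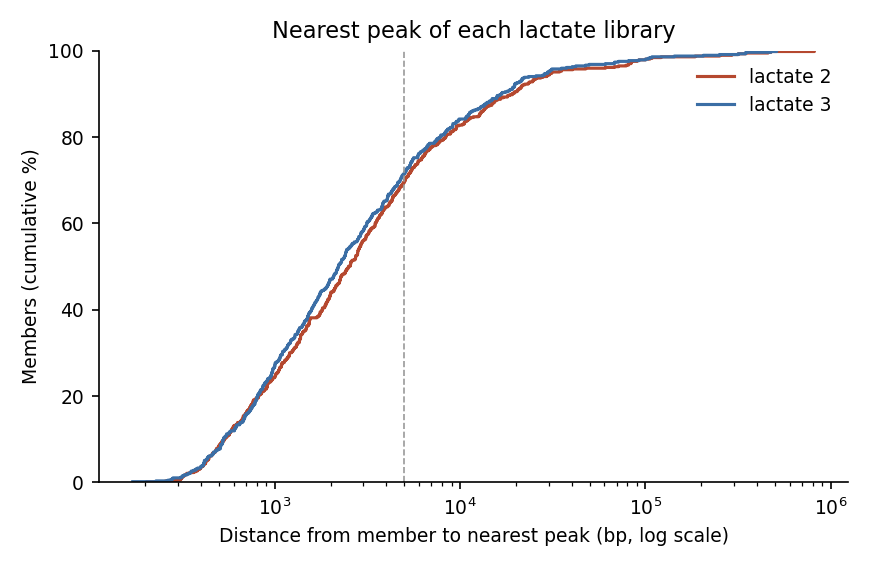
Cumulative share of the 569 members (vertical axis, percent) by distance to the nearest peak of lactate 2 and of lactate 3 (horizontal axis, bp, log scale); the dashed line marks 5000 bp. The 2 curves run together and pass 69.6 and 71.5% at 5000 bp.

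The 17 most isolated members, singled out after their values were seen, included F2RL1, the protease-activated receptor 2 gene, with nearest lactate peaks 816648 and 347822 bp away. Its member was 1041 and 1391 bp wide with folds of 6.78 and 6.44. GPC6, a glypican of the cell surface, had nearest peaks at 251649 and 251553 bp and folds of 11.7 and 12.8, and NELL2, a secreted neural protein, at 316930 and 316921 bp and folds of 6.64 and 7.17. In such places both control libraries carried a wide peak and neither lactate library had a call within 50000 bp on either side. KAT6A, a MYST-family histone acetyltransferase, was another, with a single peak in the gene in each control library (1110 and 1010 bp, folds 12.03 and 14.4) and nearest lactate peaks 121545 and 103346 bp away.

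Most members lay in genes. A coding gene was overlapped by 444 (78.0%, against 72.7% of the wide regions with both lactate peaks), only a noncoding gene by 40 (7.03%) and none by 85 (14.9%). Listed gene starts were inside 40 members (7.03%, against 6.88%), and an end of a coding gene span inside 63 (11.1%, against 8.33%). Along the gene, members with known strand sat a median of 67.0% of the way from the start (n = 337), against 67.2% in the other class. The members were thus spread within gene bodies, toward the 3' side, much as the other wide regions were. Exons and introns were not assigned because the annotation used gives gene spans only.

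Members overlapped 413 autosomal coding genes, 2.16% of 19122, whereas wide control regions of any kind overlapped 2493 (13%). In 329 of these genes (79.7%) both lactate libraries had a peak elsewhere in the gene, in 16 only 1 library had, and in 68 (16.5%) neither had. The same counts were not made over other coding genes with control peaks. They therefore do not show whether missing lactate peaks are particular to genes with a member. The 68 genes were short, with a median length of 8.66 kb against 59.1 kb for the 329. Over the 413 genes, peak counts, each taken gene by gene, summed to 5938 and 6209 in controls 2 and 3 and to 4296 and 4389 in lactate 2 and 3. These sums equal 11.4 and 11.7% of the control lists and 11.3 and 11.4% of the lactate lists, so these genes had about the same share of the peaks in every library.

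KDM6B, the histone H3 lysine 27 demethylase also known as JMJD3, had 2 members and no lactate peak anywhere in the gene (chosen after its values were seen). Control 2 had peaks of 492, 2463, 435 and 2353 bp across KDM6B and control 3 of 971, 2396, 514 and 3219 bp. Their folds were 4.95, 4.76, 6.16 and 3.59 in control 2 and 5.89, 8.57, 8.13 and 5.18 in control 3. Both lactate libraries were without a call over the whole of KDM6B (chr17:7834217-7854796, plus strand), and their nearest peaks lay 17982 and 18029 bp from the member at chr17:7842420-7844897. The KDM6B members are the second and the fourth of these peaks. The peak at the start of the gene was under 1000 bp in both control libraries. In control 2 the -log10 q of the 2 members in KDM6B was 4.39 and 3.51, against a median of 9.67 over all members. In control 3 it was 12.6 and 9.38. Under the -log10 q of at least 5 used as an alternative, neither region would be a member.

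**Figure D5:**
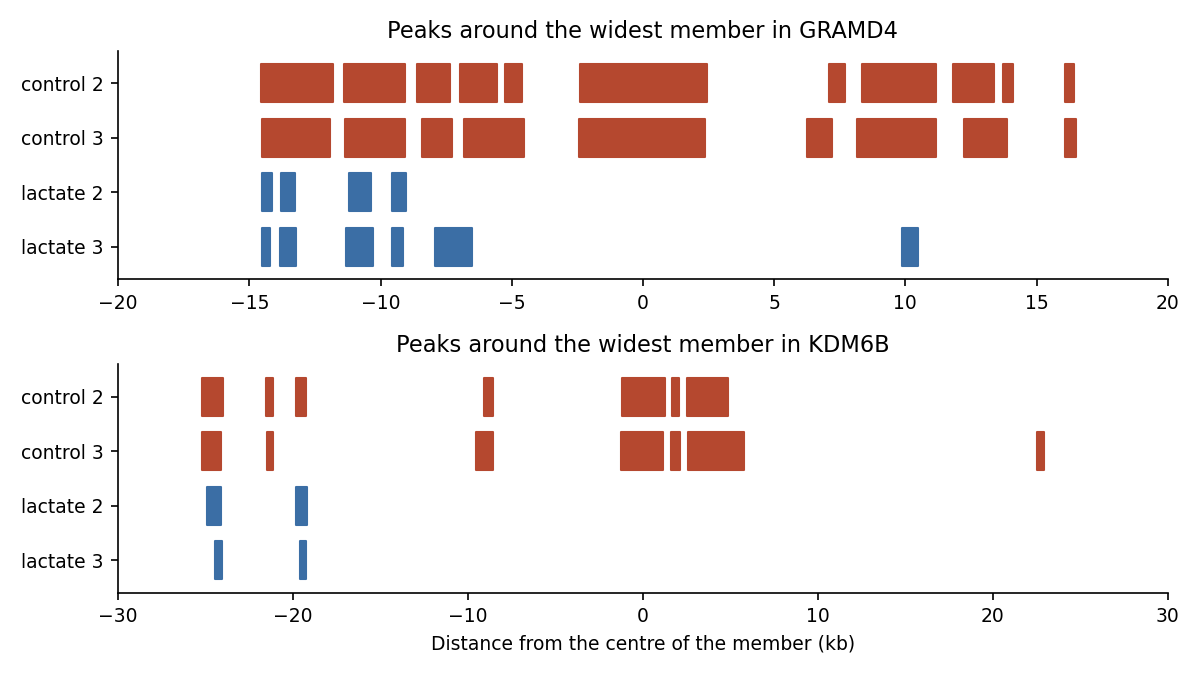
Called peaks (blocks) in the 2 control and 2 lactate libraries around the widest member in GRAMD4 and in KDM6B, by distance from the centre of the member (horizontal axis, kb). The nearest lactate peaks lie 6565 and 4081 bp from the GRAMD4 member and 17982 and 18029 bp from the KDM6B member.

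With KDM6B, 22 of the 413 genes with a member had no lactate peak and at least 2 peaks in each control library. The same count was not made over genes without a member, and the genes below were chosen after their values were seen. AMOTL2, a scaffold of the angiomotin family, had 4 peaks in each, with a member of 1023 and 1020 bp (folds 7.36 and 8.51). TRIM11, a ubiquitin ligase, had 4 and 5, YIF1B, of membrane traffic, 3 and 4, and HCN2, a pacemaker channel, 3 and 4. CBX2, a Polycomb subunit, carried a peak of 2780 bp in control 2 and 1506 bp in control 3 with folds of 10.99 and 12.5. MCAM, an adhesion molecule, had 2075 and 2133 bp, but its fold differed between the libraries, at 5.32 and 14.3. NEIL1, a DNA glycosylase, had 1473 and 1505 bp. In each of these genes the absence of lactate calls extended beyond the member to the whole gene span.

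Among 16 gene lists, 16 of 519 autosomal genes had a member (3.08%, against 2.16% of all coding genes), where a wide control region of any kind was present in 18.7% of the listed genes against 13.0% of all. Glycolysis genes had none of 36, with a wide control region in 7 and a peak in both lactate libraries in 15. Lactate transport and sensing had none of 19, with wide regions in 2. There was also none among 30 genes of gluconeogenesis and the citrate cycle, 56 liver plasma proteins, 48 of the Wnt pathway, 23 of the hypoxia response, 22 stromal and endothelial and 26 blood cell markers. Of 25 lactylation enzymes only KAT6A had a member. These lists are short for a share of 2.16% of all coding genes, so an empty list does not set its genes apart.

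Histone methylation and remodelling had 4 of 45 genes with a member (8.89%, against 2.16% of all coding genes), and 14 of the 45 carried a wide control region. These were KDM6B, KDM4B, KMT2B, a histone H3 lysine 4 methyltransferase, and SMARCA4, an ATPase of the SWI/SNF complex. KDM4B had 3 members and many other peaks: 63 in each control library and 41 and 42 in the lactate libraries. SMARCA4 had a member of 1360 and 1395 bp with folds of 11.3 and 8.70, and KMT2B one of 1053 and 1162 bp with folds of 3.45 and 3.14 over a background of 5.98 and 7.18 times the genome level. The list of class II and IV histone deacetylases had a member in 2 of 6 genes, and wide control regions in 3 of the 6. Over all coding genes these shares were 2.16 and 13.0%. With only 6 genes, no share is read from this list. The 2 genes were HDAC4 (1119 and 1173 bp, folds 5.35 and 5.27) and HDAC11 (1175 and 1213 bp, folds 5.73 and 5.19). Of the 4 demethylase, methyltransferase and remodelling genes, only KDM6B was without any lactate peak.

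Growth signalling through mTOR had a member in 3 of 37 genes (8.11%, against 2.16% of all coding genes), and 8 of the 37 carried a wide control region: TSC2, an inhibitor of the pathway (2617 and 2135 bp, folds 7.45 and 6.42), RPTOR, the raptor subunit (3253 and 1114 bp, folds 8.03 and 2.94), and NPRL3, a subunit of the GATOR1 complex (1077 and 1339 bp, folds 7.89 and 10.2). RPTOR was uneven, with 1 peak in control 2 and 3 in control 3. Potassium channels carried a wide control region in 11 of 39 genes and a member in 3 (7.69%), KCNH3 with its high folds, KCNJ6 with 2 members and KCNQ1 with 2. The KCNJ6 members measured 1471 and 1472 bp and 1329 and 1206 bp, and lactate peaks lay 10570 bp or more from them. Besides KAT6A, single genes stood in the lists of liver transcription factors, sterol and fatty acid synthesis and cytochrome P450: RXRA, the nuclear receptor partner, SREBF2, the sterol-sensing transcription factor (1012 and 1001 bp, folds 7.26 and 8.02), and CYP26B1, a retinoic acid hydroxylase (2012 and 2484 bp, folds 8.97 and 9.92, background at the genome level in both libraries).

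Members lay on all 22 autosomes, as 3.50% of the wide regions of chromosome 20 and 11.01% of those of chromosome 14 at the extremes. The highest counts were 49 on chromosome 1, 46 on chromosome 17 and 44 each on chromosomes 7 and 22. Within 5 Mb of a chromosome end, taken as the outermost annotated gene, were 260 members (45.7%), fewer than the 52.6% of the wide regions with both lactate peaks and more than the 28.8% of the narrower regions without any. Seen from the wide regions, 6.44% of 4040 in the outer 5 Mb and 8.19% of 3773 elsewhere were members. Members closer than 100 kb to another formed 83 groups with 208 members (36.6%). The same count was not made for other wide regions, so it does not show whether grouping is particular to the members. The largest, of 6 members over 184 kb at chr9:134259755-134443892, covered LINC02247 and RXRA among 29 wide regions, with 51 and 43 lactate peaks in the same span.

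Long genes could hold several members beside many lactate peaks, and those with 3 or more were taken after their values were seen. GSE1 had 4 members among 146 and 161 control and 121 and 121 lactate peaks, TAFA5 4 among 83 and 80 against 57 and 59, and PCNT, the centrosomal pericentrin, 4 among 28 and 31 against 19 and 19. MAD1L1, a spindle checkpoint gene, had 3 members and more lactate than control peaks, at 116 and 115 against 93 and 97. PACS2 had 3 members among 16 and 14 control and 6 and 7 lactate peaks. Lactate calls thus remained elsewhere in each of these genes, in numbers from well under the control counts, as in PACS2, to above them, as in MAD1L1.

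At the threshold, the members just inside had a narrower control width of 1000 bp and lay in TRIM11 (2108 and 1000 bp), ZCCHC24 (1000 and 1064 bp) and TSPAN9 (1055 and 1000 bp). Just outside were regions in AP2A2 (999 and 1590 bp), UCKL1 (999 and 1205 bp) and SHANK2 (1001 and 997 bp). Folds on the inner side were 11.1 and 12.8, 12.4 and 14.4, and 7.53 and 6.11. On the outer side they were 4.51 and 3.66, 10.03 and 12.5, and 7.82 and 8.29. The 2 sides overlap in fold.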

How the data were processed

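H4K5la ChIP-seq peak lists of 2 control and 2 lactate libraries were analysed, each of a single library. The submitters' processing notes name MACS2 2.2.6, Bowtie2 2.3.4.2, Picard 2.18.11 and Trimmomatic 0.38, besides SAMtools 1.9, FastQC 0.11.7 and, without a role, featureCounts 1.6.3 and RSEM, and give build hg38. The authors' deposited columns give peak positions, an integer score, the summit's fold enrichment as a ratio to background, and -log10 p and -log10 q, whose lowest values (2.00 to 2.02) lie at a q threshold of 0.01. Depth is not in the lists. Reads at the summit and the caller's background were recovered from the deposited fold and -log10 p, as whole numbers for 100% of peaks within 0.001 on the -log10 p, and the recovery was checked on simulated data.

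Peaks were merged and compared in Python 3.11.15 with pandas 2.3.3, numpy 2.4.6 and scipy 1.17.1, and drawn with matplotlib 3.10.9. Where a region holds several peaks in a library, its width and fold are those of the widest peak, and the fold ranks use the highest fold. Genes, promoters and microRNAs came from RefSeq tables of GRCh38.p14, matched by position; all 533 listed genes matched, of which 519 are autosomal. Background is the caller's local level over its genome-wide level.

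Members, gene lists and comparisons were chosen with earlier results of these data known. Named were the 12 widest members by the narrower control width, the 8 of best mean fold rank, members in lactylation, glycolysis and transport genes, up to 3 per other list, and 3 on each side of the width limit; a few of these are not reported. Alternatives were other widths, a stricter q, equal lists of 37951 peaks, wider merging, a lactate-free flank, chromosome X and each library left out. Intervals are exact Clopper-Pearson 95% and cover counting error only.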

Additional observations from a re-analysis of the deposited data

How the results depend on the processing

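The count of 569 members stayed within 1.5 times under a -log10 q of at least 5 (803), equal lists (382), merging within 500 bp (422) and chromosome X included (570), and moved further elsewhere. With a width of at least 500, 1500 and 2000 bp it was 3686, 138 and 38, and the share of wide regions was 17.0, 3.82 and 2.001%. Merging within 1000 bp gave 297 members. Asking for no lactate peak within 5000 bp gave 137 (1.75%). The share was 10.7% under the stricter q, 5.58% with equal lists, and 5.83 and 4.60% with merging within 500 and 1000 bp. Leaving out a library gave 966 to 1189 members (11.3 to 13.7%), since a rule on 3 libraries is met more easily: 1189 without control replicate 2, 1180 without control replicate 3, 966 without lactate replicate 2 and 1070 without lactate replicate 3.

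The lactate counterpart of 2 regions was 83, 0 and 0 at widths of 500, 1500 and 2000 bp, 8 under the stricter q, 37 with equal lists and 6 to 12 with a library left out, so with equal lists 382 stood against 37. Listed genes with a member numbered 68, 4 and 4 at the 3 widths, 9 with merging within 1000 bp, 4 with the lactate-free flank and 21 to 31 with a library left out. The share of members with peaks of both lactate libraries within 5000 bp was 53.0% at 500 bp, 57.8 and 44.4% with merging within 500 and 1000 bp. With a library left out it ranged from 61.7 to 74.1%: 61.7 and 62.5% without a control library, and 74.1 and 73.1% without lactate replicate 2 or 3, where only the remaining lactate library is counted. The ratio of the members' median background to that of the wide regions with both lactate peaks, 1.56, was 1.19 at 500 bp, 1.27 under the stricter q, 1.19 with equal lists, 1.40 with the lactate-free flank and 1.25 to 1.49 with a library left out; it stayed above 1 in every alternative run. The causes of these shifts were not tested beyond what the settings themselves remove.

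No paired analysis was possible because the results are counts of regions and medians from no test, and the shared replicate numbers come with no label of a shared culture or day. The lists do not show signal below the threshold, the lactate lists are shallower, and the input background was higher in lactate at shared summits of wide regions, a difference without a replicate if each treatment had 1 input.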
